A study of Mus musculus with 8 samples.

Results

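The 40 genes described here encode ribosome biogenesis and nucleolar proteins: RNA polymerase I and its factors, the proteins of the small nucleolar ribonucleoprotein particles (snoRNPs), and assembly factors of the small and the large ribosomal subunit. They were chosen by gene symbol from genes known as targets of the transcription factor MYC, with no threshold on a measured value, though earlier results of these data were known when the list was made. All 40 had a row among the 55421 gene rows of the count table, all 40 are protein coding, and they lie on 17 chromosomes. All 40 passed the filter on low counts, which kept 12997 genes. For the description they were split by role into 8 RNA polymerase I and nucleolar factors, 4 box C/D snoRNP proteins, 5 box H/ACA snoRNP proteins, 12 small subunit factors and 11 large subunit factors.

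RNA of splenic germinal centre B cells was measured by bulk sequencing in 8 libraries, with 2 libraries in each of 4 groups. The mice were C57BL/6, aged 8 to 10 weeks, and their spleens were taken 10 days after immunization. The genotypes were Smarca4+/+ (wild-type) and Smarca4+/- (heterozygous); Smarca4, also named Brg1, encodes an ATPase subunit of the SWI/SNF chromatin remodelling complexes. From each genotype the labels name a CB and a CC fraction, read here as centroblasts, the dividing germinal centre B cells of the dark zone, and centrocytes, those of the light zone. The immunizing agent, the way the Smarca4 allele was made and the gate between CB and CC are not given in the labels, which name only enrichment of germinal centre B cells with PNA microbeads. The labels do not say that replicates came from separate mice, so every p below rests on the spread of libraries that may be technical repeats. In bulk RNA, fewer cells of a type and less RNA per cell cannot be told apart.

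Ribosome biogenesis starts in the nucleolus, where RNA polymerase I transcribes a long precursor of the ribosomal RNAs. Box C/D snoRNPs guide ribose methylation of this precursor and box H/ACA snoRNPs guide its pseudouridylation, while assembly factors fold and cut it into the small and the large subunit. In B cells this programme is known as one of the main outputs of MYC, which germinal centre B cells switch on for a short time in the light zone after help from T cells.

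The MYC and MAX binding motif is the palindrome CACGTG, and promoters of the members were read for it because the list was drawn from MYC targets. RefSeq promoter windows of build GRCm38.p6 (250 bases before to 50 after a gene's start, 300 bases in all) were present for 35 of 40 members; Npm1, Fbl, Rrp12, Bop1 and Rrs1 had no entry. The motif, whose 2 strands read alike, lay in the windows of 7 of the 35 members (20% of genes). It lay in 20 of 104 other ribosome biogenesis genes (19.2%) and in 2187 of 27025 genes of the whole table (8.09%). By window the shares were 15.9% of 44 member windows and 7.15% of 32851 windows. Measured from the RefSeq start that placed the window, the motif began 2 to 40 bases after it in 6 of the 7 genes. In Nop2 it began 60 bases before it. For Mybbp1a and Utp20 this start differs from the gene coordinates given below. The 7 sites are shown in 30 bases each, 5′ to 3′ on the gene's strand, with the motif in capitals:
Mybbp1a (chr11:72441347-72441376, + strand): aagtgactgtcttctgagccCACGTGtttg
Utp20 (chr10:88826765-88826794, - strand): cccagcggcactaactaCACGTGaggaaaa
Wdr43 (chr17:71616220-71616249, + strand): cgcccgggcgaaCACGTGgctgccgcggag
Ltv1 (chr10:13193092-13193121, - strand): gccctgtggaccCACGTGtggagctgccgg
Tsr1 (chr11:74898092-74898121, + strand): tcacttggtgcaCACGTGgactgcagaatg
Pes1 (chr11:3963965-3963994, + strand): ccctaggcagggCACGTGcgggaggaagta
Nop2 (chr6:125131811-125131840, + strand): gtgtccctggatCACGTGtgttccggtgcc
Of the 4 members called in the tests below, Mybbp1a and Utp20 hold the motif, Heatr1 and Nolc1 do not. A match of letters is a description of the window and no evidence of binding.

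Depth differed between the fractions, with total counts of 18357578 to 24341805 per CB library but 526353 to 837558 per CC library. Levels are given in CPM, computed here with library sizes adjusted by TMM. Every member had at least 227 counts in each CB library, whereas 26 members in wild-type CC and 23 in heterozygous CC had under 50 counts in a library, and the lowest count was 2. Replicates differed over the members by a median of 0.16 (log2) in wild-type CB, 0.17 in heterozygous CB, 0.46 in wild-type CC and 0.32 in heterozygous CC, a wider spread in CC. Exons of 17 members overlap an exon of a gene on the other strand, and reads there cannot be assigned without the strand setting, for which nothing is given in the labels. The longest such overlaps were those of Tsr1 (1240 bases with Srr) and Noc2l (598 with Samd11); of the called members, Heatr1 shares 155 bases with Lgals8 and Mybbp1a 131 with Spns2. Over all 8 libraries Srr had 870 counts, Samd11 had 9, Lgals8 had 2104 and Spns2 had 131. The targeted gene, Smarca4, was measured at 897 and 1002 CPM in wild-type CB and 734 and 702 in heterozygous CB. It was at 322 and 316 CPM in wild-type CC and 244 and 311 in heterozygous CC. Heterozygous libraries were below wild-type ones in both fractions, with a log2 difference in CB of -0.40 (SE 0.17, edgeR adjusted p = 1). The difference in CC was -0.20 (SE 0.18, adjusted p = 0.607).

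Markers of other cells moved with the fraction. The summed level of 15 macrophage and monocyte markers was 68.7 to 305 CPM in CB and 1928 to 4473 in CC, and 12 of the 15 in wild-type and 14 of the 15 in heterozygous mice passed the test as higher in CC. The 15 T cell markers summed to 111 to 139 and 210 to 724 CPM (10 and 7 called higher), and 10 erythroid markers to 5.43 to 12.9 and 128 to 804 CPM (7 and 5 of 9 tested called higher). At most 1 of the macrophage markers was at 0 in any library, and 0 to 3 T cell markers (Cd247, Trbc1, Themis, Icos) were at 0 in the CC libraries. In the deeper CB libraries 3 to 6 T cell markers were at 0. Of the erythroid markers, 0 to 5 were at 0 in CB libraries and 0 to 2 in CC libraries. Fcgr1 was the macrophage marker at 0 in both heterozygous CC libraries, and Marco was at 0 in 3 CB libraries. Plasma cell markers summed to 530 to 636 and 489 to 609 CPM. Among B cell programmes, 15 G2/M genes summed to 6800 to 8724 CPM in CB and 1983 to 4607 in CC, 7 dark zone genes to 1324 to 1554 and 372 to 608, and 9 light zone genes to 367 to 438 and 868 to 1200. The 14 germinal centre B cell markers were detected in every library, at 6269 to 6944 CPM in CB and 4345 to 5770 in CC. The part of these shifts in the members' fraction differences was not tested.

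In wild-type mice the members were mostly higher in CC than in CB. Of the 40, 4 passed the test as higher and 0 as lower (edgeR quasi-likelihood test, Benjamini-Hochberg adjustment over 12997 genes, threshold 0.05): Heatr1, Mybbp1a, Utp20 and Nolc1, which rose 1.67- to 2.16-fold. That is 10.0% of the members, against 3.72% of all genes tested called higher and 3.76% called lower. The fitted change was positive for 32 of 40 members, with a median of 0.56 (log2), while the median of all genes was -0.19 and 42.0% of them were positive. In 20 members both CC libraries lay above both CB libraries (18.2% of all genes) and in 3 (Wdr43, Bysl and Wdr12) both lay below (38.5%). At an unadjusted p under 0.05 there were 14 members (35% of them, against 23.3% of all genes). The scaling shifts the median of all genes from -0.19 to -0.07 with RLE factors and to -0.00 with total counts, and 35 and 37 members are then positive. Relative to that median the members stood at 0.75 under each of the 3 scalings. A change of scaling moves all genes by nearly the same amount, so this difference could hardly vary and is no check of the result.

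The count of 4 differed with the tool and the libraries. Apart from DESeq2, the share of all genes called in these other runs is not given here. Their counts therefore cannot be read as particular to the members. DESeq2 called 13 members higher and 1 lower (10.0% and 7.13% of its genes), limma-voom called 0, and leaving out 1 library gave 0 to 7, with 0 when either wild-type CB library was left out.

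**Figure D1:**
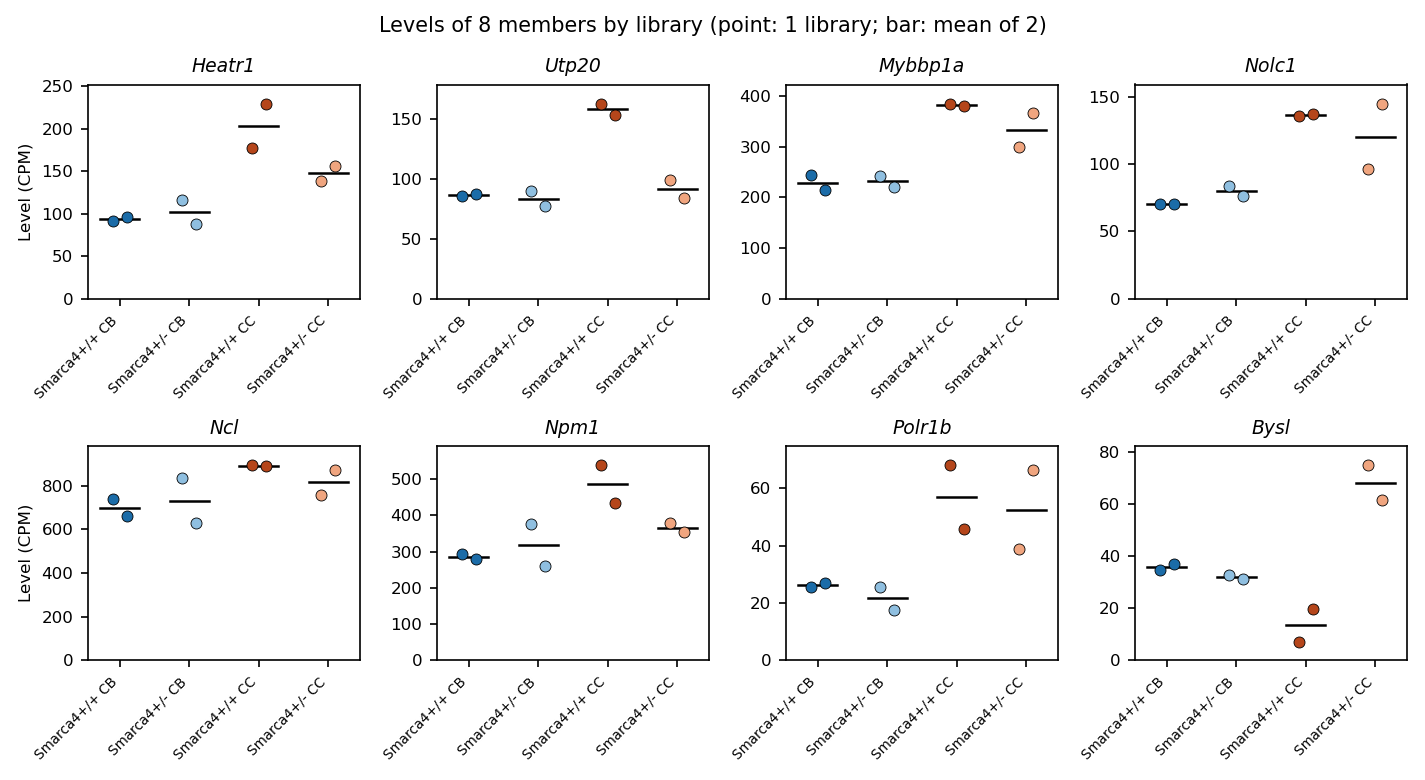
Level in CPM (vertical axis, from 0) of 8 members in each library, by genotype and fraction; a point is 1 library and a bar the mean of 2. Heatr1, Utp20, Mybbp1a and Nolc1 have both wild-type CC libraries above both wild-type CB libraries, and Bysl has its lowest levels in wild-type CC and its highest in heterozygous CC.

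Heatr1 (ENSMUSG00000050244.9, chr13:12395027-12440289 in mm10, 47 merged exons) encodes UTP10, a factor that joins the ribosomal RNA precursor while it is transcribed. Its level was 91.1 and 96.7 CPM in wild-type CB and 177 and 229 in wild-type CC, and 116 and 88.2 CPM in CB against 139 and 156 in CC in heterozygous mice. Every CC library was above every CB library of its own genotype. The change was 1.11 (log2, SE 0.24, adjusted p = 0.0193) in wild-type and 0.53 (log2, SE 0.24, adjusted p = 0.266) in heterozygous mice. Utp20 (chr10:88746607-88826804, 62 merged exons), a large scaffold of the small subunit precursor, was at 86.1 and 87.1 CPM in wild-type CB and 163 and 154 in wild-type CC. In heterozygous mice the CB libraries read 89.6 and 77.8 CPM and the CC libraries 98.8 and 84.2. The wild-type CC libraries thus stood above the other 6, which overlap. The fraction change was 0.87 (log2, SE 0.23, adjusted p = 0.0459) in wild-type and 0.13 (log2, SE 0.23, adjusted p = 0.823) in heterozygous mice.

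Mybbp1a (chr11:72441355-72451768, 21 merged exons) encodes a nucleolar protein that binds RNA polymerase I and takes part in ribosomal RNA processing. It read 243 and 214 CPM in wild-type CB, 384 and 381 in wild-type CC, 242 and 221 in heterozygous CB and 299 and 366 in heterozygous CC. CC was above CB without overlap in both genotypes. The change was 0.74 (log2, SE 0.19, adjusted p = 0.0367) in wild-type and 0.52 (log2, SE 0.19, adjusted p = 0.165) in heterozygous mice. Nolc1 (chr19:46075863-46085530, 12 merged exons) encodes Nopp140, a chaperone of snoRNPs. Its wild-type levels were 70.3 and 70.6 CPM in CB and 136 and 137 in CC, and its heterozygous levels 83.7 and 76.1 CPM in CB against 96.1 and 145 in CC. Again no CC library overlapped the CB libraries of its genotype, with a change of 0.95 (log2, SE 0.26, adjusted p = 0.0473) in wild-type and 0.60 (log2, SE 0.25, adjusted p = 0.243) in heterozygous mice. The 4 calls are near the threshold: over 18 alternatives Heatr1 kept its call in 13, Mybbp1a in 10, Utp20 in 7 and Nolc1 in 6, with the same sign in all 18. Npm1 and Dkc1, which just missed the threshold, were called in 10 and 9 of the same 18.

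In heterozygous mice more members were higher than lower in CC. No member passed the edgeR test (0 of 40, against 2.17% of all genes higher and 1.5% lower), 9 had an unadjusted p under 0.05 (22.5%, against 18.2% of all genes), and DESeq2 called 8 higher and 0 lower (7.62% and 3.99% of its genes). The change was positive for 31 of 40, with a median of 0.22 against -0.08 for all genes, of which 46.0% were positive. This median rests on single libraries: it was 0.46 without heterozygous CB replicate 1, 0.43 without heterozygous CC replicate 1 and 0.064 without heterozygous CC replicate 2. In 18 members both CC libraries were above both CB libraries (20.2% of all genes), and in 5 (Ubtf, Nop10, Wdr43, Ddx18 and Wdr74) they were below (33.2%). The wild-type and heterozygous comparisons share no library but come from 1 fit. In both, 26 members were higher in CC and 3 lower, while 6 were higher in wild-type and lower in heterozygous mice, and 5 the reverse. With 32 and 31 of the 40 positive, many members would be higher in both without agreement gene by gene. The share of all genes is not given here. The difference between the genotypes in the fraction change passed the test for 0 members (0.0% of all genes); 4 had an unadjusted p under 0.05 (10.0%, against 9.19% of all genes), and DESeq2 called 1, Bysl (2.42% of its genes). In 4 members the fractions did not overlap in either genotype and lay in opposite order in the 2 genotypes (6.98% of all genes did so). In 6 the genotypes did not overlap in either fraction and lay in opposite order in CB and CC (4.93% of all genes), which makes 9 members with either pattern against 9.88% of all genes. A missed threshold does not show that a member did not differ.

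**Figure D2:**
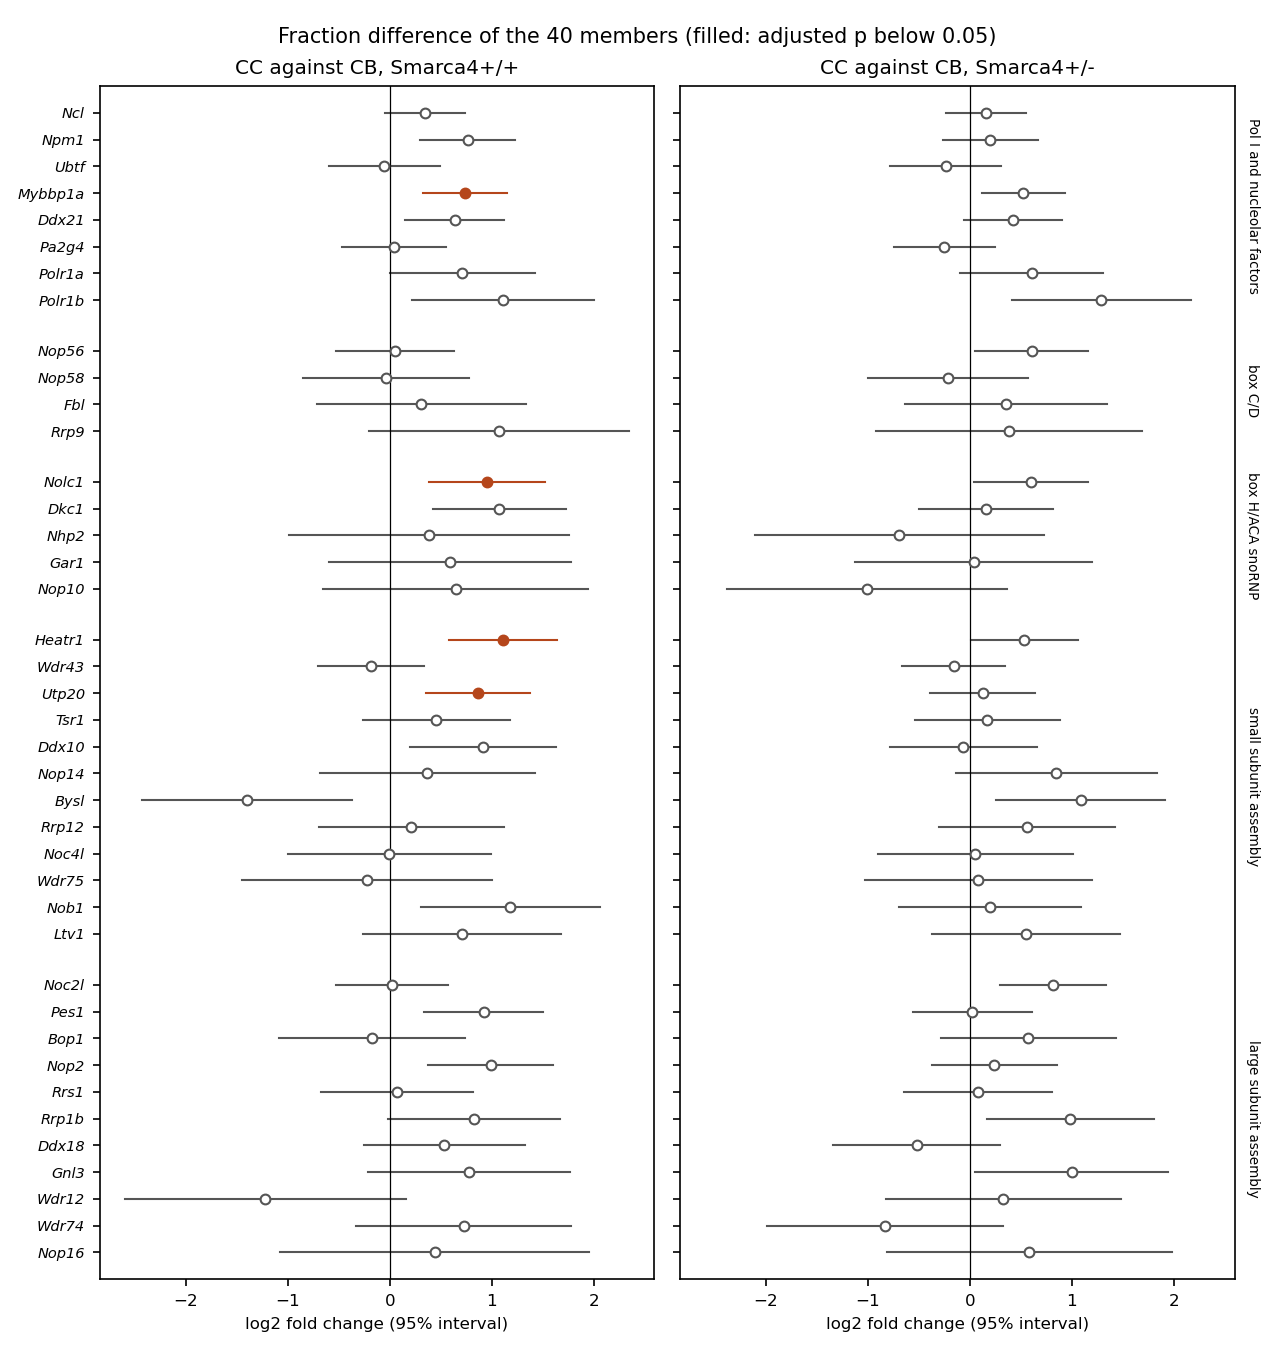
log2 fold change of CC against CB (horizontal axis) with its 95% interval for the 40 members, grouped by role (right margin), in wild-type (left) and heterozygous mice (right); filled points passed the adjusted threshold. The 4 filled points are on the wild-type side, where the median is 0.56 against 0.22 on the heterozygous side.

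Levels per length (CPM per kilobase of exon, which compares genes) spanned a wide range within and between the roles. Npm1 was highest, at 107 ± 3.63 in wild-type CB (mean ± SD, n = 2), 119.5 ± 30.4 in heterozygous CB, 182 ± 27.3 in wild-type CC and 137 ± 6.88 in heterozygous CC. Ncl followed at 68.6 ± 5.12, 71.7 ± 14.2, 87.4 ± 0.166 and 79.9 ± 7.76 in the same order. In wild-type CB both Npm1 libraries lay above both Ncl libraries. The first 6 in the mean over all libraries were nucleolar factors, with Pa2g4 (52.1), Mybbp1a (50.6), Ubtf (49.9) and Ddx21 (49.9) after these 2. The order of the 4 changed with the group. In wild-type CB Ubtf, at 54.4 and 53.2, stood above Mybbp1a, at 41.9 and 36.9, and Ddx21, at 41.4 and 38.3, whose values overlap. In wild-type CC Mybbp1a, at 66.2 and 65.6, stood above Pa2g4, at 44.6 and 52.5. The same role also held low members, the catalytic subunits of RNA polymerase I, with means of 9.17 for Polr1a and 6.77 for Polr1b, below Pes1 (30.3), Nop56 (26.0) and Nolc1 (25.6) of other roles, and Wdr12 was lowest at 2.08. Exon length here is the union over all transcripts, so a gene with long minor exons reads low.

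**Figure D3:**
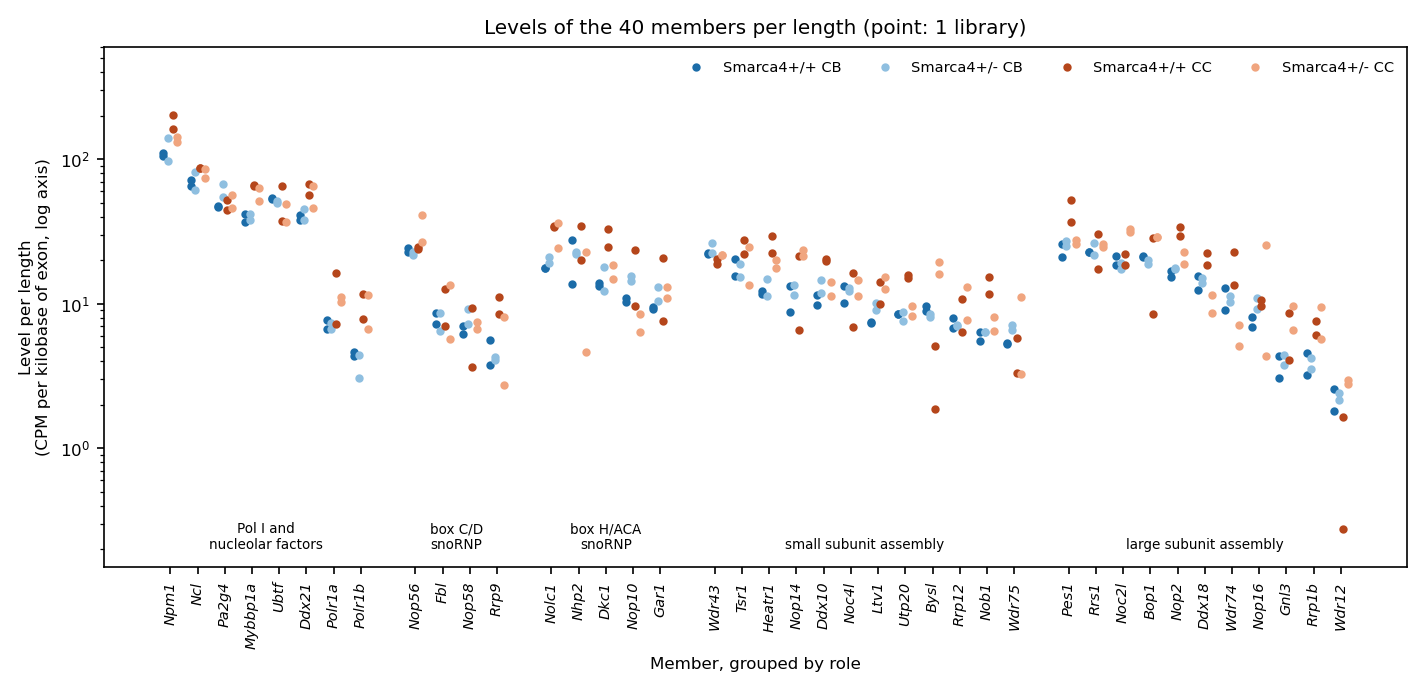
Level per length (CPM per kilobase of exon, logarithmic vertical axis) of the 40 members in each of the 8 libraries, ordered by mean level within role; colours mark genotype and fraction. Npm1 and Ncl stand highest, and the CC points of low members such as Wdr12 and Bysl lie far apart.

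Among the 8 RNA polymerase I and nucleolar factors, 7 were positive in wild-type CC against CB (median 0.67) and 6 in heterozygous mice (median 0.31); Mybbp1a was the 1 call. Polr1b, the second-largest subunit of RNA polymerase I, was at 25.4 and 27.0 CPM in wild-type CB and 67.9 and 45.8 in CC, and at 25.5 and 17.7 CPM in CB against 38.7 and 66.4 in CC in heterozygous mice. CC was above CB without overlap in both genotypes, by 1.11 (log2, SE 0.41, adjusted p = 0.126) and 1.29 (log2, SE 0.40, adjusted p = 0.111). Polr1a, the largest subunit, read 91.5 and 79.2 CPM in CB against 85.8 and 193 in CC in wild-type mice, and 87.1 and 80.0 CPM in CB against 123 and 132 in CC in heterozygous mice. Its wild-type CC libraries were far apart, and 1 of them lay among the CB values. Ubtf, the HMG box factor that keeps ribosomal DNA open, was at 356 and 349 CPM in CB against 247 and 432 in CC in wild-type mice, with overlap, and at 329 and 337 CPM in CB against 243 and 321 in CC in heterozygous mice.

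Ncl, nucleolin, read 736 and 662 CPM in wild-type CB and 892 and 889 in CC; in heterozygous mice CB read 833 and 628 and CC 758 and 870.2. Its wild-type fractions did not overlap and its heterozygous fractions did, with changes of 0.35 (log2, SE 0.18, adjusted p = 0.268) and 0.16 (log2, SE 0.18, adjusted p = 0.681). Npm1, nucleophosmin, was at 293 and 279 CPM in CB against 538 and 435 in CC in wild-type mice, and at 376 and 261 CPM in CB against 379 and 353 in CC in heterozygous mice. It missed the threshold in wild-type mice (0.77 log2, SE 0.21, adjusted p = 0.0515), and both edgeR with other scalings or filters and DESeq2 called it. Npm1 has processed copies elsewhere in the genome, and how the authors treated reads that map to several places is not given in the sources used here. Ddx21, an RNA helicase of the nucleolus, had log2 differences (± SE, here and below, wild-type first) of 0.64 ± 0.22 and 0.43 ± 0.22. Pa2g4, a growth regulated nucleolar protein also named Ebp1, had 0.04 ± 0.23 and -0.25 ± 0.23. Neither passed the test.

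The box C/D proteins had the smallest median in wild-type CC against CB, 0.18, with 3 of 4 positive and 0 called. Fbl, fibrillarin, the methyltransferase of these particles, was at 36.2 and 30.4 CPM in wild-type CB and 53.6 and 29.4 in CC, and at 36.5 and 27.3 CPM in CB against 24.04 and 56.9 in CC in heterozygous mice, with overlap in both. Nop56, a core protein, read 99.8 and 93.5 CPM in CB against 102 and 98.1 in CC in wild-type mice, where 1 CC value lies between the CB values, and 88.8 and 94.0 CPM in CB against 109 and 168 in CC in heterozygous mice, where both CC values are above (0.61 log2, SE 0.25, adjusted p = 0.233). Its partner Nop58 read 75.3 and 66.7 CPM in CB against 100.1 and 39.2 in CC in wild-type mice, and 98.4 and 78.5 against 80.1 and 72.3 in heterozygous mice, with differences of -0.04 ± 0.37 and -0.22 ± 0.36. The U3 particle protein Rrp9 read 16.5 and 11.0 CPM in CB against 25.02 and 32.7 in CC in wild-type mice, and 11.97 and 12.6 against 8.01 and 23.7 in heterozygous mice, with 1.07 ± 0.58 and 0.39 ± 0.59. Only for Rrp9 in wild-type mice were both CC libraries of these 2 genes above both CB libraries. Introns or exons of 7 members host 21 small RNA rows of the snoRNA type, Nop56 with 5 and Nop58 with 4. Only 11 of the 21 had a count, 299 in all over the 8 libraries, so their levels were not compared. Every row without a count shares exon bases with its host on the same strand, and no row with a count does. A count of 0 there does not show that the small RNA was absent. Exons of 5 members overlap a row on the same strand, by 328 bases in Nop56, 272 in Ncl and 235 in Gnl3.

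All 5 box H/ACA proteins were positive in wild-type CC against CB (median 0.65), while 3 of 5 were in heterozygous mice (median 0.04). The 1 called was Nolc1, counted in this role as a chaperone of snoRNPs. Dkc1, the pseudouridine synthase dyskerin, read 57.3 and 55.1 CPM in wild-type CB, 136 and 101 in wild-type CC, 73.9 and 50.1 in heterozygous CB and 61.4 and 77.1 in heterozygous CC. The wild-type CC values stood above the other 6, and the change was 1.07 (log2, SE 0.30, adjusted p = 0.0515). Nop10, the smallest core protein, was at 12.2 and 11.5 CPM in CB against 10.7 and 26.2 in CC in wild-type mice, where the fractions overlap, and at 17.2 and 15.9 CPM in CB against 9.35 and 7.11 in CC in heterozygous mice, where CC was lower without overlap (-1.01 log2, SE 0.63, adjusted p = 0.420). Nhp2, a core protein that binds RNA, read 31.9 and 15.6 CPM in CB against 39.3 and 22.9 in CC in wild-type mice, and 26.3 and 25.4 against 5.34 and 26.1 in heterozygous mice, with differences of 0.38 ± 0.62 and -0.69 ± 0.65. Its fractions overlap in both genotypes, as do those of Gar1, another core protein, with 0.59 ± 0.54 and 0.04 ± 0.53.

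Of the 12 small subunit factors 8 were positive in wild-type (median 0.41, 2 called) and 10 in heterozygous mice (median 0.19, 0 called). Beside Heatr1 and Utp20, Nob1, the endonuclease that trims the small subunit's ribosomal RNA, was at 19.4 and 22.1 CPM in CB against 53.6 and 40.9 in CC in wild-type mice, and 22.3 and 22.3 CPM in CB against 22.7 and 28.5 in CC in heterozygous mice. CC was above CB in both genotypes without overlap, by 1.18 (log2, SE 0.40, adjusted p = 0.101) and 0.20 (log2, SE 0.41, adjusted p = 0.843). Ddx10, an RNA helicase, read 36.1 and 30.9 CPM in CB against 64.3 and 62.1 in CC in wild-type mice, and 46.0 and 37.1 against 44.1 and 35.6 in heterozygous mice, with differences of 0.92 ± 0.33 and -0.06 ± 0.33; CC was above CB without overlap in wild-type mice. Wdr43 and Wdr75, which like Heatr1 join the precursor during transcription, did not pass the test in either genotype, with fitted log2 fold changes of CC against CB from -0.22 to 0.08. Wdr43 read 106 and 107 CPM in CB against 89.3 and 98.1 in CC in wild-type mice, and 126 and 107 against 104 and 104 in heterozygous mice, with differences of -0.18 ± 0.24 and -0.16 ± 0.23. Wdr75 read 26.2 and 25.9 CPM in CB against 28.6 and 16.3 in CC in wild-type mice, and 35.0 and 32.3 against 16.0 and 54.5 in heterozygous mice, with -0.22 ± 0.56 and 0.08 ± 0.51. CC was below CB without overlap for Wdr43 in both genotypes, and the Wdr75 fractions overlap in both. Tsr1, a late factor on the small subunit, read 78.6 and 59.8 CPM in CB against 105 and 85.0 in CC in wild-type mice, and 72.2 and 58.8 against 52.1 and 94.8 in heterozygous mice, with 0.46 ± 0.33 and 0.17 ± 0.32; CC was above CB without overlap in wild-type mice. The other small subunit factors, chosen for mention after their values were seen, were Nop14 (0.37 ± 0.48 and 0.85 ± 0.45), Noc4l (-0.00 ± 0.45 and 0.05 ± 0.43), Rrp12 (0.21 ± 0.41 and 0.56 ± 0.39) and Ltv1 (0.71 ± 0.44 and 0.55 ± 0.42).

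Bysl, bystin, a late factor of the small subunit, went against the list in wild-type CC. It read 34.5 and 37.0 CPM in wild-type CB, 7.15 and 19.6 in wild-type CC, 32.9 and 31.3 in heterozygous CB and 74.8 and 61.7 in heterozygous CC. Both wild-type CC libraries were below every CB library, and both heterozygous CC libraries were above. The CC values rest on 4 and 12 counts in wild-type and 56 and 52 in heterozygous libraries. The fraction change was -1.40 (log2, SE 0.47, adjusted p = 0.0983) in wild-type and 1.09 (log2, SE 0.38, adjusted p = 0.155) in heterozygous mice, and their difference was 2.48 (log2, SE 0.60, adjusted p = 0.419). Without wild-type CC replicate 2 the wild-type change was -2.33 and passed the edgeR test (adjusted p = 0.0366), and without wild-type CC replicate 1 it was -0.87 (adjusted p = 0.226). The heterozygous change passed without either wild-type CC library (1.06, adjusted p = 0.0374 and 0.0383), and DESeq2 called both changes. Bysl shares 361 exon bases with Ccnd3 on the other strand, the partner with the most counts. Ccnd3 was at 304 to 345 CPM in CB, 168 and 252 in wild-type CC and 168 and 155 in heterozygous CC.

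Of the 11 large subunit factors 9 were positive in each genotype (medians 0.54 and 0.33) and 0 were called. Pes1, Bop1 and Wdr12 form the PeBoW complex that processes the large subunit's RNA precursor. Pes1 was at 78.3 and 64.1 CPM in CB against 111 and 159 in CC in wild-type mice, without overlap (0.92 log2, SE 0.26, adjusted p = 0.0586), and at 82.7 and 76.4 CPM in CB against 78.8 and 83.0 in CC in heterozygous mice (0.03 log2, SE 0.27, adjusted p = 0.972). Wdr12 lay the other way in wild-type mice, 30.6 and 21.8 CPM in CB and 19.7 and 3.27 in CC, and read 29.0 and 25.9 CPM in CB against 33.4 and 35.6 in CC in heterozygous mice; its wild-type CC values come from 11 and 2 counts. Bop1 had -0.17 ± 0.41 and 0.57 ± 0.39. In wild-type mice the 3 partners of 1 complex thus had values on both sides of 0, the negative ones resting on few CC counts (14 and 52 for Bop1). In heterozygous mice Pes1 and Bop1 were above 0, and both Wdr12 CC libraries lay above both CB libraries.

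Nop2, a methyltransferase of the large subunit's ribosomal RNA, was at 47.0 and 42.3 CPM in CB against 82.2 and 94.8 in CC in wild-type mice (0.99 log2, SE 0.28, adjusted p = 0.0560), and at 47.9 and 49.4 CPM in CB against 52.1 and 62.8 in CC in heterozygous mice (0.24 log2, SE 0.28, adjusted p = 0.690). CC was above CB in both without overlap. Noc2l, which travels with large subunit precursors, had the smallest p of the members in heterozygous mice: 72.9 and 79.4 CPM in CB and 138 and 130.4 in CC (0.81 log2, SE 0.24, adjusted p = 0.0917). Its wild-type libraries read 77.3 and 88.8 CPM in CB against 76.8 and 91.5 in CC, which overlap. Gnl3, the GTP-binding nucleostemin, read 26.5 and 18.8 CPM in CB against 25.02 and 52.3 in CC in wild-type mice, and 26.9 and 23.0 against 40.1 and 59.3 in heterozygous mice, with differences of 0.78 ± 0.45 and 1.00 ± 0.43; CC was above CB without overlap in heterozygous mice.

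Wdr74 read 24.1 and 16.9 CPM in CB against 25.02 and 42.5 in CC in wild-type mice, and 19.2 and 21.2 against 13.4 and 9.48 in heterozygous mice, with differences of 0.72 ± 0.48 and -0.83 ± 0.53. The RNA helicase Ddx18 read 38.8 and 30.9 CPM in CB against 55.4 and 45.8 in CC in wild-type mice, and 37.2 and 34.4 against 21.4 and 28.5 in heterozygous mice, with 0.54 ± 0.36 and -0.52 ± 0.37. For both genes CC was above CB in wild-type and below CB in heterozygous mice, without overlap. Rrs1, a large subunit assembly factor, read 46.9 and 46.6 CPM in CB against 35.7 and 62.1 in CC in wild-type mice, and 54.1 and 44.8 against 53.4 and 51.0 in heterozygous mice, with 0.07 ± 0.34 and 0.08 ± 0.33. Nop16 read 14.9 and 12.7 CPM in CB against 17.9 and 19.6 in CC in wild-type mice, and 20.3 and 17.1 against 8.01 and 47.4 in heterozygous mice, with 0.44 ± 0.69 and 0.58 ± 0.64; its heterozygous CC libraries were the farthest apart of that group, at 6 and 40 counts. Rrp1b, a nucleolar partner of the large subunit precursors, had 0.82 ± 0.38 and 0.99 ± 0.37. None of these passed the test.

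In CB no member differed between the genotypes past the threshold. No member was called (0 of 40, 0.0% of all genes), and DESeq2 also called 0 (0.00928% of its genes). At an unadjusted p under 0.05 in edgeR there were 0 members, but also only 0.646% of all genes, so the 0 is not particular to the members. The median difference, heterozygous against wild-type, was 0.09 (log2), against -0.00 for all genes, with 26 of 40 positive; it was -0.01 without heterozygous CB replicate 1, 0.014 without wild-type CB replicate 2 and 0.15 without either of the other 2 CB libraries. In 12 members both heterozygous libraries were above both wild-type ones (16.2% of all genes) and in 3 below (15.8%). The smallest p belonged to Pa2g4, 131 and 134 CPM in wild-type and 190.4 and 153 in heterozygous CB (0.37 log2, SE 0.22, adjusted p = 1). For Ncl the interval ran from -0.32 to 0.45, for Npm1 from -0.30 to 0.61 and for Polr1a from -0.69 to 0.63. All 5 box H/ACA proteins were positive, with a median of 0.18 and 3 of them without overlap, while 49.3% of all genes were positive.

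In CC the genotype differences ranged more widely, from -1.58 to 2.33 against -0.28 to 0.48 in CB, also without a call. Of the 40 members 0 passed the edgeR test (0.0231% of all genes did), 8 had an unadjusted p under 0.05 (20%, against 15.2% of all genes), and DESeq2 called 2, Bysl higher and Utp20 lower (6.18% of its genes). The median was -0.13 against 0.03 for all genes, with 17 of 40 positive. The sign rests on 1 library: the median was 0.053 without heterozygous CC replicate 1 and -0.41 without heterozygous CC replicate 2. In 6 members both heterozygous CC libraries were above both wild-type ones (18.1% of all genes), and in 14 both were below (14.4%). The 14 were Ncl, Npm1, Mybbp1a, Rrp9, Dkc1, Nop10, Heatr1, Utp20, Ddx10, Nob1, Pes1, Nop2, Ddx18 and Wdr74. The smallest p values belonged to Bysl, 2.33 (log2, SE 0.48, adjusted p = 0.108), Utp20, -0.79 (log2, SE 0.25, adjusted p = 0.195), and Wdr74, -1.58 (log2, SE 0.56, adjusted p = 0.233). Without the filter on low counts edgeR called Bysl (adjusted p = 0.00807).

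Utp20 was at 163 and 154 CPM in wild-type CC and 98.8 and 84.2 in heterozygous CC. Wdr74 read 25.02 and 42.5 CPM in wild-type CC and 13.4 and 9.48 in heterozygous CC. Both were lower in heterozygous CC without overlap. All 5 box H/ACA proteins were negative, with a median of -0.77 and a range of -1.18 to -0.18, while 55.0% of all genes were positive. In 2 of the 5 the genotypes did not overlap, and 1 had an unadjusted p under 0.05 in edgeR. Nop10, Nhp2 and Gar1 had as few as 6, 4 and 8 counts in a CC library. Of the 8 nucleolar factors 7 were negative, with a median of -0.14. Among the abundant members the interval ran from -0.53 to 0.27 for Ncl, from -0.62 to 0.22 for Mybbp1a and from -0.88 to 0.07 for Npm1. Each interval held 0 but reached well below it, so a lower level in heterozygous CC was not excluded for these genes. The libraries of heterozygous CC also held more Mki67, a marker of dividing cells, at 1777 and 2574 CPM against 1129 and 1027 in wild-type CC (log2 1.01, SE 0.19, adjusted p = 0.100). The 15 G2/M genes summed to 3102 and 4607 CPM in heterozygous against 1983 and 2052 in wild-type CC. Of the markers of other cells, those of T cells lay lower in heterozygous CC, at 320 and 210 CPM against 724 and 667. Erythroid markers did too, at 473 and 128 CPM against 636 and 804, both without overlap. Macrophage and monocyte markers, at 4473 and 1928 CPM against 3647 and 3709, lay on both sides. Plasma cell markers, at 580 and 488 CPM against 609 and 503, overlapped between the genotypes. So did 10 stroma and endothelium markers, at 154 and 91.3 CPM against 163 and 121. None of these lists held a gene called between the genotypes in CC (0 of 15, 15, 9, 15, 8 and 5 tested). Only 0.0231% of all genes were called there, so the absence of calls is not particular to these lists. Their part in the members' values was not tested.

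Myc, the factor by which the list was drawn, was at 23.8 and 28.9 CPM in wild-type CB and 129 and 154 in wild-type CC, and at 27.6 and 24.7 CPM in CB against 90.8 and 121 in CC in heterozygous mice. It rose in CC by 2.42 (log2, SE 0.29, edgeR adjusted p = 0.00115) in wild-type and 2.02 (SE 0.28, adjusted p = 0.00457) in heterozygous mice. Its genotype difference in CC was -0.41 (SE 0.29, adjusted p = 0.491). Its partner Max had -0.02 and 0.02, and Mycn was listed at 0 counts in every library. The members' median of 0.56 was below the change of Myc. The 7 members with the CACGTG motif had a median of 0.74 in wild-type CC against CB (6 positive) and the 28 members with a window without it had 0.56 (22 positive); in heterozygous mice the medians were 0.17 and 0.27.

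The other genes of the pathway had medians nearer to 0. Of 125 other ribosome biogenesis genes, all tested, 1 was called higher (Mdn1) and 1 lower (Taf1d) in wild-type CC (0.8% each, against 3.72% and 3.76% of all genes), with 73 positive and a median of 0.08; in heterozygous CC 1 was called higher (Mdn1; 2.17% of all genes were), with 65 positive and a median of 0.03. Mdn1, the giant ATPase that strips factors from large subunit precursors, was at 176 and 147 CPM in wild-type CB and 388 and 317 in CC, and at 152 and 132 CPM in CB against 307 and 364 in CC in heterozygous mice. It rose by 1.12 (log2, SE 0.21, adjusted p = 0.00955) and 1.24 (SE 0.21, adjusted p = 0.00891). Taf1d, a subunit of the RNA polymerase I selectivity factor, read 303 and 324 CPM in CB against 166 and 139 in CC in wild-type mice, a log2 difference of -1.04 (SE 0.22, adjusted p = 0.0174), and 257 and 353 CPM in CB against 308 and 352 in CC in heterozygous mice. The difference of these changes was 1.16 (SE 0.30, adjusted p = 0.419). By role the wild-type medians of the other genes were 0.11 for 15 nucleolar factors, -0.41 for 11 snoRNP assembly genes, 0.05 for 45 small subunit and 0.18 for 54 large subunit genes. Between genotypes edgeR called 0 of the 125 in CB and in CC; 0 and 20 had an unadjusted p under 0.05 (0% and 16.0%, against 0.646% and 15.2% of all genes), and DESeq2 called 0 and 6, where it called 0.00928% and 6.18% of its genes.

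**Figure D4:**
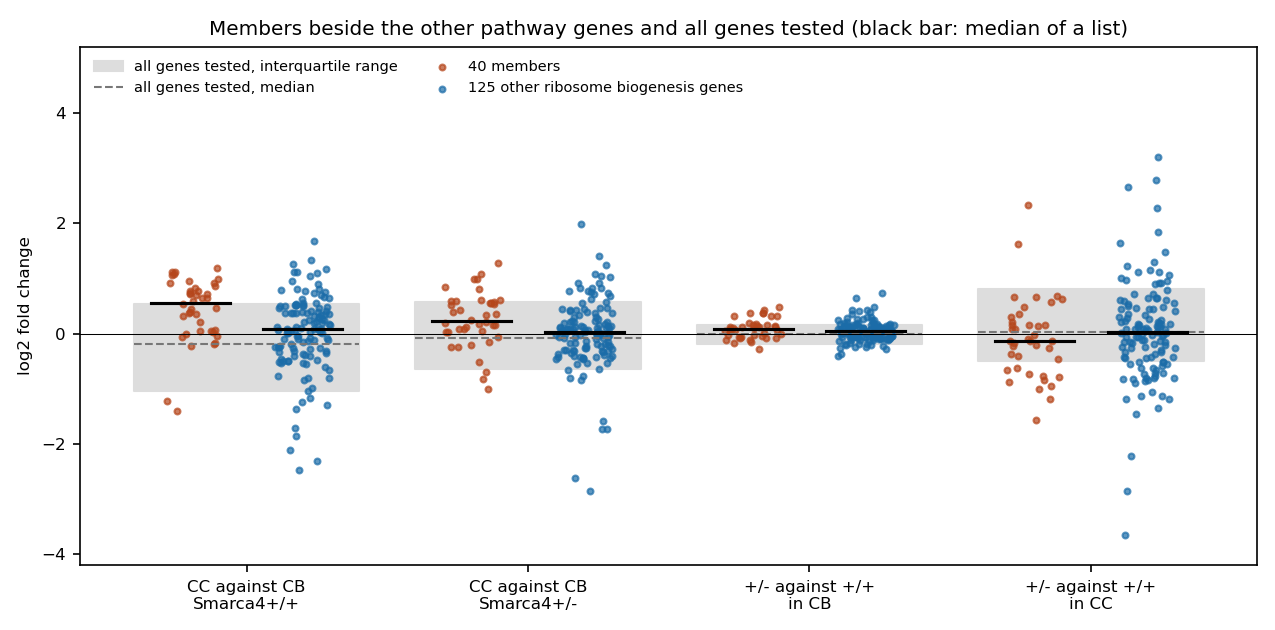
log2 fold change (vertical axis) of the 40 members and of 125 other ribosome biogenesis genes in 4 comparisons; black bars are list medians, the grey band is the interquartile range of all genes tested and the dashed line is their median. In wild-type CC against CB the member median of 0.56 stands above that of the other genes (0.08) and of all genes (-0.19).

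Positive values in wild-type CC were as frequent among low as among abundant members. Split by mean CPM over all libraries, 16 of the upper 20 and 16 of the lower 20 members were positive, with medians of 0.55 and 0.56, and all 4 calls were in the upper 20. Split by exon length, 15 of the 20 longest and 17 of the 20 shortest were positive, with medians of 0.49 and 0.56, and the 4 calls were among the longest. Summed over the 40 members, the level was 3575 and 3320 CPM in wild-type CB, 3912 and 3328 in heterozygous CB, 4641 and 4894 in wild-type CC and 3892 and 4688 in heterozygous CC. The sum of wild-type CC was above all CB libraries, while 1 heterozygous CC library lay between the heterozygous CB libraries and the other above. Of the sum, the 8 nucleolar factors held 1896 to 2317 CPM in CB and 2210 to 2813 in CC.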

How the data were processed

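Raw read counts per gene were deposited by the authors for 8 libraries (2 per group) without normalization, with exon lengths in bases. Per the submitters' processing notes, FastQC, STAR, featureCounts, Subread and R 4.2.1 were used with build mm10; per the labels' protocols, ribosomal RNA was depleted from total RNA. For strand setting and multi-mapped reads nothing is given in the sources used here. Identifiers were matched to GENCODE M21, whose coordinates equalled those of 54985 of 55421 rows.

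Counts were fitted in R 4.3.3 with edgeR 4.0.16 (TMM factors, filterByExpr with a minimum count of 10 and a minimum total of 15, quasi-likelihood test). One model of 4 group means over 8 libraries (4 residual degrees of freedom) gave 5 comparisons: CC against CB in each genotype, genotype in each fraction, and their interaction. p-values were adjusted by Benjamini-Hochberg over 12997 genes with a threshold of 0.05; standard errors are the log2 fold change over the root of F. The fit was tested on simulated counts, where it recovered a minority of the changes and fewer of the smaller ones. Members and lists were chosen with earlier results of these data known. Genes with full values were the called members, the 2 highest per length in each role, the 3 highest, 3 lowest and 3 smallest p in each comparison of 2 groups, and Ncl, Npm1, Fbl, Nop56, Polr1a, Polr1b and Ubtf; of other genes, Smarca4, Myc, Mki67 and up to 6 called pathway genes per comparison; further genes were named after their values were seen. Alternatives were DESeq2 1.42.0, limma-voom 3.58.1, other scalings and filters, fewer groups, a replicate block, thinned CB libraries and each library left out. Replicates within each group differed beyond sampling noise (chi-square per degree of freedom 7.82 to 80.7). Total counts set the precision: 18357578 to 24341805 in CB, 526353 to 837558 in CC. The values of some single marker genes are not reported here.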

Additional observations from a re-analysis of the deposited data

Results flagged for a closer look

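For 9 members every library of 1 comparison moved one way and every library of its counterpart the other way, a pattern seen in 9.88% of all 12997 genes. Each value is the difference between the genotypes in the CC against CB change (log2, heterozygous minus wild-type), tested as the interaction in edgeR. Heterozygous libraries were above wild-type in CB and below in CC for Nop10 (-1.66, adjusted p = 0.567), Ddx10 (-0.98, adjusted p = 0.553), Nob1 (-0.98, adjusted p = 0.596) and Nop2 (-0.75, adjusted p = 0.573). The reverse held for Bop1 (0.74, adjusted p = 0.664) and Bysl (2.48, adjusted p = 0.419). Between the fractions, CC was above CB in wild-type and below in heterozygous mice for Ddx18 (-1.05, adjusted p = 0.564) and Wdr74 (-1.56, adjusted p = 0.542). CC was below CB in wild-type and above in heterozygous mice for Wdr12 (1.55, adjusted p = 0.573) and again for Bysl. No interaction passed the threshold; Bysl had the smallest unadjusted p, 0.00156.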

How the results depend on the processing

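No direction reversed in any alternative run for the wild-type CC against CB change of the 4 called members, or for Bysl in either fraction comparison, in genotype in CC and in the interaction. In wild-type CC against CB, the 4 called members became 14 with DESeq2, 8 with RLE scaling, 8 with total count scaling, 8 with at least 50 counts in 2 libraries, 0 with limma-voom and 0 with only the groups compared; leaving out 1 library gave 0 to 7, with 0 without either wild-type CB library, 2 without either heterozygous CB library or wild-type CC replicate 2, and 7 without heterozygous CC replicate 1. The members' median of 0.56 became 0.69 with thinned CB libraries, DESeq2 and RLE scaling, 0.66 with the stricter filter and 0.75 with total counts, and 0.49 to 0.72 with 1 library left out. In heterozygous mice, 0 called members became 8 with DESeq2 and 0 to 2 with 1 library left out (2 without either wild-type CC library), and the median of 0.22 ranged from 0.064 to 0.46. Genotype in CC gave 2 calls with DESeq2 and 1 without the low count filter, with medians of -0.41 to 0.053 (-0.41 without heterozygous CC replicate 2, 0.053 without replicate 1). The interaction gave 1 call with DESeq2, with medians of -0.49 to -0.055. The genotype median in CB ranged from -0.01 to 0.15. For the other pathway genes, the wild-type count of 2 became 12 with DESeq2, 1 with limma-voom and 0 with only the groups compared (0 to 11 with 1 library left out), and the heterozygous count of 1 became 7 with DESeq2, 4 without the filter, 2 with only the groups compared and 3 with the replicate block within genotype (0 to 7 with 1 library left out). Their counts for genotype in CC became 6 with DESeq2 and 2 without the filter, and for the interaction 3 with DESeq2. The cause of these changes was not tested. Shares of all genes called are given above only for the main fit and DESeq2. The counts of the other runs therefore cannot be read as particular to the members or to the other pathway genes. The labels do not say that equal replicate numbers pair the samples, and correlations of replicate differences were -0.05 to 0.05 over 12997 genes and -0.15 to 0.20 over 1581 genes with at least 50 counts in every library; pairing was therefore not established. With the replicate block 3 members were called in wild-type mice, against 4: Heatr1, Mybbp1a and Npm1 (adjusted p = 0.0399), without Utp20 and Nolc1. In CC libraries, 26 members in wild-type and 23 in heterozygous mice had under 50 counts, which limits the precision of the low members.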
